A study of Mus musculus with 10 samples.

Results

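Genes that protect cells from oxidants, electrophiles and free metal ions were examined in primary differentiated adipocytes of control mice and of mice bred for adipocyte deletion of Fam20c, which encodes a kinase of the secretory pathway. The genes were chosen by symbol and by function: the NRF2 regulator pair, its classical target enzymes, the enzymes of glutathione, thioredoxin and peroxide metabolism, the glutathione S-transferases, ferritin, the selenoproteins Selenop and Selenow, and the metallothioneins. The count table lists 56748 genes and held each of these 39. All 39 were among the 14270 genes with enough counts to be tested.

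RNA-seq covered 5 libraries from control and 5 from Ad-Fam20c–KO mice. The cells were stromal vascular cells from the inguinal fat of male mice 6 to 8 weeks old, turned into adipocytes in culture over 6 to 8 days with IBMX, dexamethasone, insulin and rosiglitazone. Both genotypes carried floxed Fam20c alleles on a background crossed to C57BL/6J, and only the KO cells also carried Adipoq-Cre, so an effect of the Cre transgene and one of the deletion cannot be told apart. The adiponectin promoter that drives this Cre is active in differentiated adipocytes and not in their precursors. The labels do not say whether the libraries of a group came from separate mice, so the P values measure the spread between these libraries, which may be technical.

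NRF2, encoded by Nfe2l2, is a transcription factor that the adaptor KEAP1 holds at a low level until oxidants or electrophiles modify KEAP1. It then drives genes such as Nqo1, Hmox1, Gclc, Gclm, Txnrd1, Srxn1 and several transferases. Glutathione and thioredoxin pass electrons from NADPH to peroxidases, superoxide dismutases and catalase remove superoxide and hydrogen peroxide, ferritin stores iron, and metallothioneins bind zinc and copper and are induced by metals and by glucocorticoids. In fat, these systems meet the peroxides made during fatty acid oxidation and lipid storage.

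Total counts per library ran from 18949106 to 26237825 in control and from 19883101 to 23291792 in KO cells. Fam20c had 8.86 to 11.9 CPM (library-size scaled counts, with TMM factors) in control and 6.65 to 7.74 CPM in the KO libraries, without overlap, a log2 ratio of KO over control of -0.49 (Benjamini-Hochberg adjusted p = 0.0137, edgeR's quasi-likelihood test). The Fam20c mean was thus 28.9% lower, and most of the transcript was still counted in KO cells. Counts cover the gene as a whole, so they do not measure the deleted exons alone. All 10 adipocyte markers on a hand-made list were detected, and 0 of them passed the limit. Their summed level was 30833 to 31734 CPM in the control and 32592 to 34635 CPM in the KO libraries. Fabp4 alone made up most of this sum, with means of 20805 and 22552 CPM. Lep, with means of 1.06 and 0.845 CPM, lay on the lower side (log2 ratio -0.32). The summed level of 12 endothelial markers was 144 to 177 CPM (median 173) in control and 58.5 to 87.8 CPM (median 70.4) in KO libraries, and 10 of the 12 were lower in KO at the adjusted limit. Of 7 progenitor markers, 2 were lower in KO, with sums of 2737 to 3203 and 2364 to 2787 CPM. Macrophage markers (8, sums of 1260.0 to 1969 and 1116 to 1858 CPM), mural markers (6, sums of 150.0 to 194 and 122 to 163 CPM) and immediate stress genes (7, sums of 223 to 254 and 240.0 to 269.6 CPM) gave 0 calls, and no list held a marker at 0 in every library. The part of these differences in the results that follow was not tested. In bulk RNA, fewer cells of a type and less RNA per cell cannot be told apart. Control library 4 and KO library 1 stood apart from the others on the leading principal component, and results that rest on them are given with and without them.

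Expression of the antioxidant genes was close in the 2 genotypes. One of the 39 genes passed the limit of 0.05 on the adjusted p: Gstm2, which encodes a cytosolic glutathione S-transferase, was 14.2% lower in KO adipocytes. Expression of both metallothioneins, of Mgst3, Prdx6, Gpx1 and Txn1 lay on the higher side and that of Nqo1 on the lower side, each with an unadjusted p below 0.05 and none past the adjusted limit. By edgeR's quasi-likelihood test, with p-values adjusted by Benjamini-Hochberg over all genes, 1 gene was thus lower (1.86% of all genes tested were called lower), 0 were higher (0.308% of all genes were called higher), and 2.17% of all genes were called in either direction. The 8 of the 39 genes with an unadjusted p below 0.05, 2 lower and 6 higher, were a larger share than the 11.9% of all genes tested (1697 of 14270). DESeq2's Wald test called 3 of the 39 (Gstm2, Mt1 and Nqo1), also a larger share than the 3.39% of all genes (484 of 14270). Whether these shares differ by more than chance was not tested. KO and control libraries did not overlap for 1 of the 39 genes and for 3.97% of all genes.

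The log2 ratios of KO over control of the 39 genes ran from -0.42 to 0.29, with a median of 0.015 against -0.00085 over all genes tested, and 21 of them (53.8%, against 49.7% of all genes) were above 0. The median standard error (SE) of the log2 ratio was 0.0495 against 0.0837 on the log2 scale over all genes. At 10 CPM or more in control cells, 20 of 36 of these genes (55.6%) and 54.8% of all genes were above 0. At that level, the median SE was 0.0490 against 0.0612. For 36 of the 39 genes (92.3%), the 95% interval of the log2 ratio lay within 0.5 on either side of 0, as it did for 75.2% of all genes and for 95.7% of the 8852 genes at 10 CPM or more. The 3 exceptions were Nqo1, Gstt1 and Mt2. Together the 39 genes took 1.53% to 1.73% of the counts of a library, with the lowest share in control library 4 and the highest in KO library 4.

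**Figure D1:**
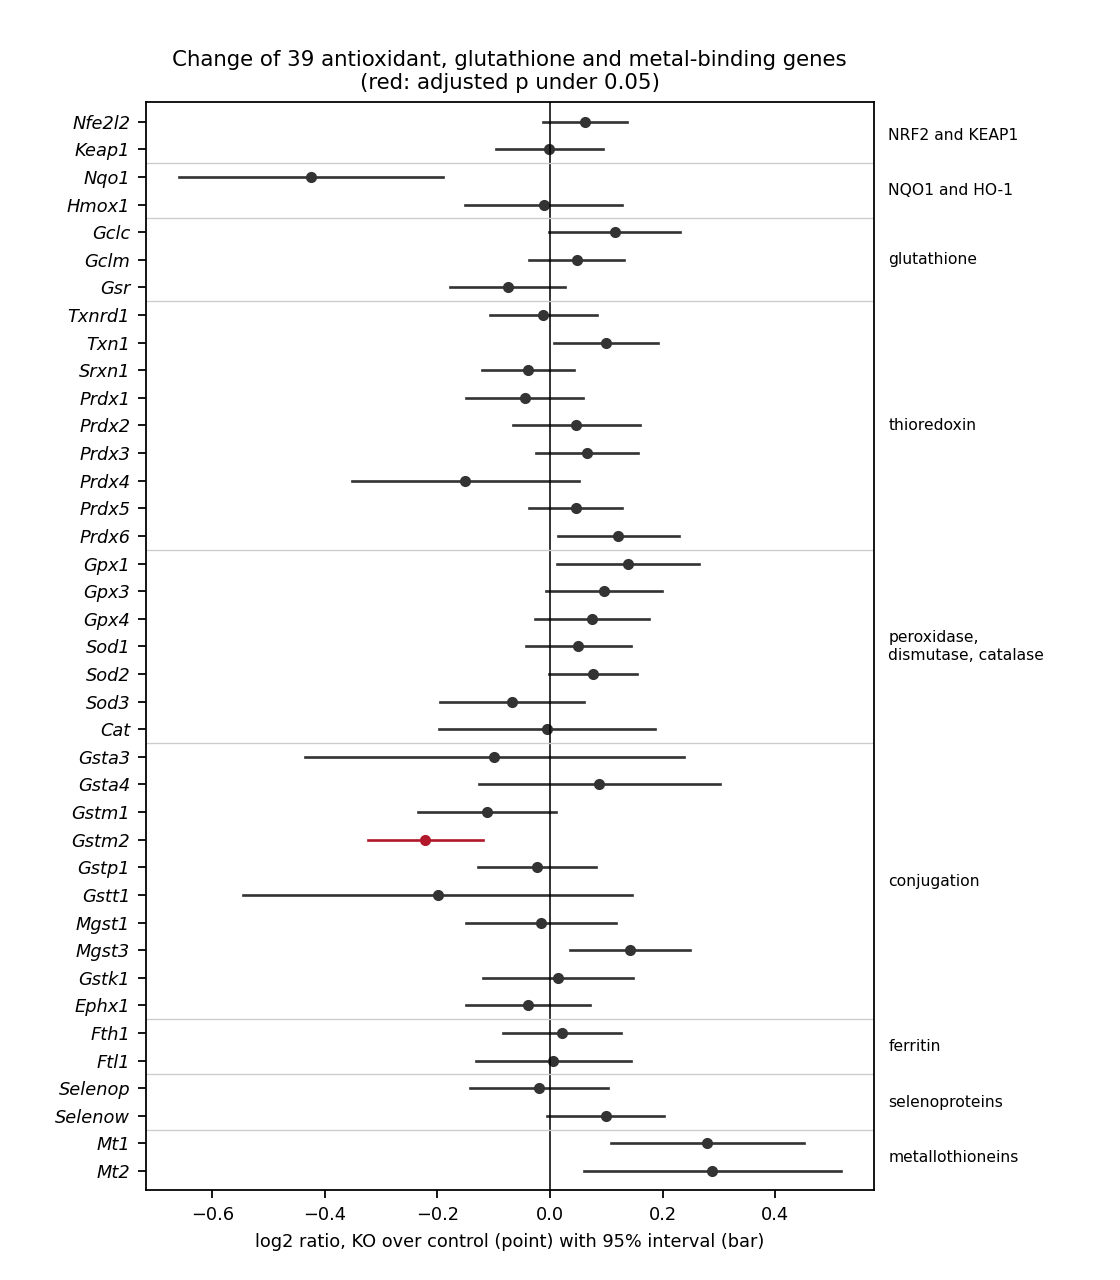
Log2 ratio of each of the 39 genes in KO against control adipocytes (point) with its 95% interval (bar), grouped by role. Gstm2, in red, passed the adjusted limit, the 2 metallothioneins sit farthest to the right at 0.28 and 0.29, and Nqo1 sits farthest to the left at -0.42 with a wide interval.

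The regulators came first. Nfe2l2 (chr2:75675513-75704641, minus strand, GRCm38) had 111, 112, 113, 113 and 115 CPM in the control libraries, numbered 1 to 5, and 121, 119.7, 118, 112 and 116 CPM in the KO libraries, in the same order. The spread in the control libraries was small, 4 of the 5 KO libraries lay above all of them, and KO library 4 lay among them. The mean was 113 ± 1.40 CPM in the control and 118 ± 3.46 CPM in the KO cells (SD, n = 5), a log2 ratio of 0.06 with a 95% interval of -0.01 to 0.14. This did not pass (adjusted p = 0.533 by edgeR's quasi-likelihood test).

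Keap1 (chr9:21229730-21239361, minus strand) had 72.3, 71.8, 70.1, 68.0 and 69.6 CPM in the control and 70.2, 72.8, 73.3, 64.0 and 71.1 CPM in the KO libraries. The groups overlapped throughout, with KO library 4 the lowest of the 10. The log2 ratio was 0 to the second decimal, with a 95% interval of -0.10 to 0.09, and its sign turned with the setting of the analysis. Keap1 shares exon sequence with Gm16754 on the opposite strand, whose counts were 2.78% of those of Keap1. NRF2 and KEAP1 act through protein level and protein binding, which RNA counts do not measure.

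Of the classical NRF2 target enzymes, Nqo1 was low and Hmox1 abundant. Nqo1 (chr8:107388225-107403206, minus strand), which encodes a quinone reductase, had 6.19, 6.11, 6.91, 5.22 and 7.02 CPM in the control and 4.91, 4.79, 4.50, 3.94 and 5.34 CPM in the KO libraries. Only control library 4, at 5.22 CPM, and KO library 5, at 5.34 CPM, crossed over. The mean was 6.29 ± 0.724 CPM in the control and 4.70 ± 0.521 CPM in the KO cells (SD, n = 5). The log2 ratio of -0.42 (SE 0.108), the largest in size among the 39 genes, missed the limit in edgeR's quasi-likelihood test (adjusted p = 0.0728) and passed it in DESeq2's Wald test (adjusted p = 0.0310). Leaving out control library 4 gave -0.48 and an adjusted p of 0.0252 in edgeR's quasi-likelihood test. Leaving out any other single library gave adjusted p-values from 0.0748 to 0.199 by the same test, none past the limit. Hmox1, which encodes the inducible heme oxygenase, had 553 ± 38.3 CPM in the control and 548 ± 48.7 CPM in the KO cells (SD, n = 5), a log2 ratio of -0.01 with a 95% interval of -0.15 to 0.13.

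Glutathione synthesis and recycling genes gave 0 calls of 3. Gclc, the catalytic subunit of glutamate-cysteine ligase, had 43.2 ± 3.29 CPM in the control and 46.8 ± 1.35 CPM in the KO cells (SD, n = 5), a log2 ratio of 0.11. Gclm, its modifier subunit, had 85.1 ± 1.92 and 87.9 ± 3.60 CPM (SD, n = 5), a log2 ratio of 0.05. Gsr, the glutathione reductase, had 51.5 ± 2.46 and 48.9 ± 2.21 CPM (SD, n = 5), a log2 ratio of -0.08. The adjusted p-values of these genes by edgeR's quasi-likelihood test ran from 0.428 to 0.731. Per kb of merged exon length, the 2 subunits of the ligase stood side by side, at 11.5 (Gclc) and 13.5 (Gclm) CPM per kb in control cells. Between libraries of a group, their deviations had a Pearson's r of -0.098 and a Spearman's rho of 0.14 (n = 10, permutation p = 0.744 and 0.677), with an r of 0.38 without the 2 libraries farthest from the median of Gclc.

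The thioredoxin system gave 0 calls of 9, with log2 ratios from -0.15 to 0.12. Txn1, the cytosolic thioredoxin, had 134, 149, 153, 146 and 154 CPM in the control and 159, 153, 159.9, 163 and 153 CPM in the KO libraries. Control library 1 was the lowest, and the groups overlapped. Its log2 ratio was 0.10 (SE 0.0428), with an adjusted p of 0.368 by edgeR's quasi-likelihood test. Prdx6, a peroxiredoxin that also reduces phospholipid hydroperoxides, had 485, 517, 504, 452 and 510.4 CPM in the control and 495, 531, 544, 576 and 539 CPM in the KO libraries. KO library 1 lay among the control libraries, and the other 4 KO libraries lay above all of them. Its mean was 494 ± 26.2 CPM in the control and 537 ± 29.0 CPM in the KO cells (SD, n = 5), a log2 ratio of 0.12 (SE 0.0495, adjusted p = 0.332 by edgeR's quasi-likelihood test).

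The other peroxiredoxins differed in level more than in their response. Prdx1, the most abundant of them by CPM, had 813 ± 37.4 CPM in the control and 788 ± 43.0 CPM in the KO cells (SD, n = 5), and Prdx3, the mitochondrial form, had 453 ± 14.1 and 474 ± 22.7 CPM (SD, n = 5). Per kb of merged exons, Prdx3 stood above Prdx1 in control cells, with 307 against 267 CPM per kb. Prdx4, the form of the endoplasmic reticulum, was the lowest, with 29.6 ± 4.19 and 26.7 ± 2.33 CPM (SD, n = 5), and had the widest interval of the system, -0.35 to 0.05. Prdx2 had 152 ± 10.3 and 157 ± 7.54 CPM and Prdx5 had 235 ± 9.53 and 242 ± 6.06 CPM (SD, n = 5). Both share exon sequence with a gene on the opposite strand: Rnaseh2a held 10.1% as many counts as Prdx2 and Trmt112 held 8.43% as many as Prdx5, so their values are less certain. Txnrd1, the cytosolic thioredoxin reductase, and Srxn1, the sulfiredoxin that restores oxidized peroxiredoxins, had log2 ratios of -0.01 and -0.04.

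Peroxidases, dismutases and catalase gave 0 calls of 7. Gpx1, the cytosolic glutathione peroxidase, had 82.7, 82.1, 79.4, 70.8 and 79.2 CPM in the control and 92.2, 80.7, 95.1, 84.1 and 81.8 CPM in the KO libraries. Control library 4 was the lowest, KO libraries 1, 3 and 4 lay above the highest control library, and the other two lay among them. The log2 ratio was 0.14 (SE 0.0584, adjusted p = 0.357 by edgeR's quasi-likelihood test). Gpx3, the secreted form, had 717 ± 45.0 and 766 ± 25.1 CPM, and Gpx4, which reduces lipid hydroperoxides in membranes, had 634 ± 31.5 and 667 ± 32.1 CPM (SD, n = 5). A pseudogene of Gpx4, Gpx4-ps2, is 99.7% identical to it over the matched bases and held 2.52% as many counts.

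Sod1, the cytosolic dismutase, had 529.5 ± 23.1 CPM in the control and 548 ± 22.2 CPM in the KO cells, and Sod2, the mitochondrial one, had 342 ± 8.71 and 361 ± 11.2 CPM (SD, n = 5). Sod3, the extracellular form, had 114 ± 10.5 and 109 ± 4.39 CPM (SD, n = 5). The log2 ratios were 0.05 (Sod1), 0.08 (Sod2) and -0.07 (Sod3), each with an interval that includes 0. Cat, the catalase of peroxisomes, had 1466, 1545, 1369.9, 1091 and 1349 CPM in the control and 1155, 1383, 1485, 1393 and 1382 CPM in the KO libraries. The lowest values were those of control library 4 and KO library 1, and the groups overlapped throughout. Its log2 ratio was -0.005, with an interval of -0.20 to 0.19, and changed sign between settings.

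Glutathione conjugation held the gene that passed. Gstm2 (ENSMUSG00000040562.13, chr3:107981702-107986453, minus strand) had 69.4, 69.4, 77.1, 72.7 and 74.0 CPM in the control libraries, numbered 1 to 5, and 66.6, 58.7, 59.4, 64.0 and 62.4 CPM in the KO libraries, in the same order. All 5 KO libraries were under the lowest control value, and KO library 1 came closest. The mean of 72.5 ± 3.27 CPM fell to 62.2 ± 3.27 CPM in KO cells (SD, n = 5), and the log2 ratio was -0.22 (SE 0.0475, 95% interval -0.32 to -0.12, Benjamini-Hochberg adjusted p = 0.0288 by edgeR's quasi-likelihood test). Genes of the mu class are alike in sequence, but by the criteria used here (at least 95% identity over at least 100 bases and 50% of a transcript) the 1 copy of Gstm2 found, Gm6665, held 0.278% as many counts as Gstm2.

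The Gstm2 call was a narrow one. With a single library left out, the log2 ratio stayed between -0.24 and -0.19, but the adjusted p of edgeR's quasi-likelihood test rose above 0.05 without control library 3 (0.0925) or 5 (0.0860) and without KO library 2 (0.1002), 3 (0.0888), 4 (0.0529) or 5 (0.0732). DESeq2's Wald test gave an adjusted p of 0.00332.

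The sequence before the RefSeq start of Gstm2 (GRCm38.p6, chr3:107986421-107986670, minus strand, 250 bases) is shown because this gene passed the limit. The letters TGACNNNGC, the core of the element that NRF2 binds, were searched for on both strands and would stand in capitals, and this window holds 0 matches.

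Gstm2: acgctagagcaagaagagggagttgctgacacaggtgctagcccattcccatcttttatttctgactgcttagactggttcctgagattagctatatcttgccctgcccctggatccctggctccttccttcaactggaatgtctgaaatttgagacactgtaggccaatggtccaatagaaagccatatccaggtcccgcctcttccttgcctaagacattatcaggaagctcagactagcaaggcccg

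RefSeq windows were found for 33 of the 39 genes, and 8 of these genes had at least one match (8 of 43 windows, 18.6%, against 10.2% of all 32817 windows of this length). A match is a description of the letters and not a binding site.

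The other conjugation genes gave 0 calls. Gstm1, the neighbour of Gstm2 in the mu class cluster, had 76.3 ± 3.95 CPM in the control and 70.5 ± 5.26 CPM in the KO cells (SD, n = 5), a log2 ratio of -0.11 with an interval of -0.24 to 0.01. Within groups, the deviations of Gstm1 and Gstm2 had a Pearson's r of 0.45 and a Spearman's rho of 0.35 (n = 10, permutation p = 0.239 and 0.401), with an r of 0.14 without the 2 libraries farthest from the median of Gstm1. Mgst3, a microsomal transferase with peroxidase activity, had 341, 337, 353, 365 and 380.4 CPM in the control and 423, 372, 367, 402 and 396 CPM in the KO libraries. KO libraries 1, 4 and 5 lay above all control libraries, while KO libraries 2 and 3 lay below control library 5. Its log2 ratio was 0.14 (SE 0.0494), with an adjusted p of 0.228 by edgeR's quasi-likelihood test. Mgst1 was higher in level (692 ± 50.6 and 685 ± 48.1 CPM, SD, n = 5) and had a log2 ratio of -0.02.

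Gsta3 and Gstt1 varied most between libraries of a group. Gsta3, an alpha class transferase, had 30.2, 35.8, 28.6, 19.1 and 25.5 CPM in the control and 22.3, 27.0, 33.6, 25.9 and 21.3 CPM in the KO libraries, nearly the whole range within each group. Gstt1, a theta class transferase, had 5.24, 5.32, 6.21, 4.30 and 6.17 CPM in the control and 5.85, 3.86, 4.76, 5.86 and 3.41 CPM in the KO libraries, and again the groups overlapped. Their log2 ratios, -0.10 (SE 0.156) and -0.20 (SE 0.160), therefore carry wide intervals, -0.44 to 0.24 and -0.55 to 0.15. A change of 0.2 in either gene was not detectable with this spread.

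Gsta4, which conjugates the lipid peroxidation product 4-hydroxynonenal, had 6.32 ± 0.728 and 6.71 ± 0.624 CPM, and Gstk1, of mitochondria and peroxisomes, had 25.1 ± 2.12 and 25.4 ± 0.742 CPM (SD, n = 5). Gstp1, of the pi class, had 73.5 ± 4.53 and 72.3 ± 2.59 CPM (SD, n = 5). Its paralog Gstp2 is 98.2% identical and held 6.78% as many counts, so fragments may have been split between them. Ephx1, the microsomal epoxide hydrolase, had 67.4 ± 2.27 and 65.6 ± 4.70 CPM (SD, n = 5).

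Ferritin expression differed between genotypes by less than the spread between libraries. Fth1, the ferritin heavy chain, had 2384, 2509, 2509, 2273 and 2409.9 CPM in the control and 2401, 2320.3, 2488, 2658 and 2398 CPM in the KO libraries. Ftl1, the light chain, had 1257, 1378, 1433, 1195 and 1315 CPM in the control and 1382, 1236, 1474, 1271 and 1243 CPM in the KO libraries. The groups overlapped for both genes, with log2 ratios of 0.02 (interval -0.08 to 0.13) and 0.01 (interval -0.13 to 0.14), whose signs turned with the scaling. Ferritin is regulated at translation by iron, which RNA counts do not show. Ftl1 has 11 transcripts elsewhere that resemble it, and together these held 0.351% as many counts. Of the selenoproteins, Selenop, which carries selenium in plasma, had 1331 ± 53.7 and 1313 ± 105 CPM, and Selenow had 70.2 ± 4.02 and 75.2 ± 3.13 CPM (SD, n = 5), with log2 ratios of -0.02 and 0.10 and adjusted p-values of 0.950 and 0.452 by edgeR's quasi-likelihood test.

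The metallothioneins had the largest values on the higher side. Neither passed the limit in edgeR's test of all libraries. Both passed without control library 4, and neither passed without any other single library. Mt1 (ENSMUSG00000031765.9, chr8:94179082-94180327, plus strand) and Mt2 (ENSMUSG00000031762.8, chr8:94172664-94173568, plus strand) are neighbours and encode the widely expressed metallothioneins. Mt1 had 1024, 1134, 953, 1289 and 1028 CPM in the control libraries, numbered 1 to 5, and 1479, 1282, 1245, 1234 and 1352 CPM in the KO libraries, in the same order. Mt2 had 1085, 1166, 970.5, 1475 and 1116 CPM in the control and 1686, 1345, 1247, 1368 and 1455 CPM in the KO libraries. For both genes, every KO library lay above control libraries 1, 2, 3 and 5, and control library 4 lay among the KO libraries. KO library 1 was the highest of the 10 for both.

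The mean of Mt1 was 1086 ± 131 CPM in the control and 1318 ± 101 CPM in the KO cells (SD, n = 5), a difference of 21.4%. Its log2 ratio was 0.28 (SE 0.0789, 95% interval 0.11 to 0.45), with an adjusted p of 0.111 by edgeR's quasi-likelihood test. Mt2 had 1163 ± 189 and 1420.2 ± 166 CPM (SD, n = 5), a log2 ratio of 0.29 (SE 0.105, 95% interval 0.06 to 0.52, adjusted p = 0.255 by edgeR's quasi-likelihood test). Without control library 4, edgeR's quasi-likelihood test gave log2 ratios of 0.35 for Mt1 (adjusted p = 0.0112) and 0.39 for Mt2 (adjusted p = 0.0226). Without both control library 4 and KO library 1, the same test gave 0.31 (adjusted p = 0.0100) and 0.32 (adjusted p = 0.0152). Without any other single library, this test gave adjusted p-values from 0.139 to 0.251 for Mt1 and from 0.225 to 0.479 for Mt2. With a block for replicate number, it gave adjusted p-values of 0.188 and 0.234. With all libraries kept, DESeq2's Wald test called Mt1 (adjusted p = 0.0241) and not Mt2 (adjusted p = 0.138). Limma voom with sample quality weights called both (adjusted p = 0.0173 and 0.0480), and edgeR without a filter on low counts called Mt1 (adjusted p = 0.0411) and not Mt2 (adjusted p = 0.138).

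The pair deviated together from the group means, in the closest relation of the 6 pairs of genes examined (Pearson's r = 0.96, Spearman's rho = 0.89, n = 10, permutation p within groups of 0.00049 and 0.0040, 0.0029 and 0.024 after adjustment over the 6 pairs). Without the 2 libraries farthest from the median of Mt1, Pearson's r was 0.86. Together, Mt1 and Mt2 took 0.196% to 0.269% of the counts of a control library and 0.251% to 0.309% of those of a KO library. The other pairs did not pass the adjustment: Fth1 and Ftl1 had r = 0.50 and rho = 0.72, Gpx3 and Selenop had r = 0.55 and rho = 0.53, and Prdx1 and Txnrd1 had r = 0.26 and rho = 0.44 (n = 10, adjusted permutation p from 0.100 to 0.578). Without the 2 libraries farthest from the median of the first gene, r was 0.77, 0.63 and 0.10.

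The 250 bases before the RefSeq start of each metallothionein (GRCm38.p6, chr8:94178839-94179088 for Mt1 and chr8:94172368-94172617 for Mt2, plus strand) are shown because the pair varied together. Capitals mark the letters TGCNCNC on either strand, a loose form of the core of the metal response element bound by MTF1. A match need not be such an element.

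Mt1: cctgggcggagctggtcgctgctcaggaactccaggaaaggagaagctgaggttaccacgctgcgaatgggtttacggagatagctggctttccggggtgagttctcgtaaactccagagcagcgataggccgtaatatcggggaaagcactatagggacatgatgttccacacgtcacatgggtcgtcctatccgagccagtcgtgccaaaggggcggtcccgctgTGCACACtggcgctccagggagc

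Mt2: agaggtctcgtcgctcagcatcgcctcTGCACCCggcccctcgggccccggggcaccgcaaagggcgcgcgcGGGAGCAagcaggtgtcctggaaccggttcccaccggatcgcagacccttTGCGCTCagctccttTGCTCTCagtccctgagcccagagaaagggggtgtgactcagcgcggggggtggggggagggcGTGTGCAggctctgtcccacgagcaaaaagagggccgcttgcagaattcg

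The Mt2 window held 5 matches, 3 of them on the strand shown and 2 on the other, a number reached by 0.344% of all windows of this length. It also held 1 match to the NRF2 core, which overlaps none of the capitals. The Mt1 window held 1 match, which 44.4% of all windows have as well. Annotated starts differ between sources, by 7 bases for Mt1 and 46 bases for Mt2, and letters beyond these windows were not searched. The merged exons of Mt1 (1246 bases) fill its whole annotated span. Which start the cells used was not tested, so the Mt1 count describes this window only.

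**Figure D2:**
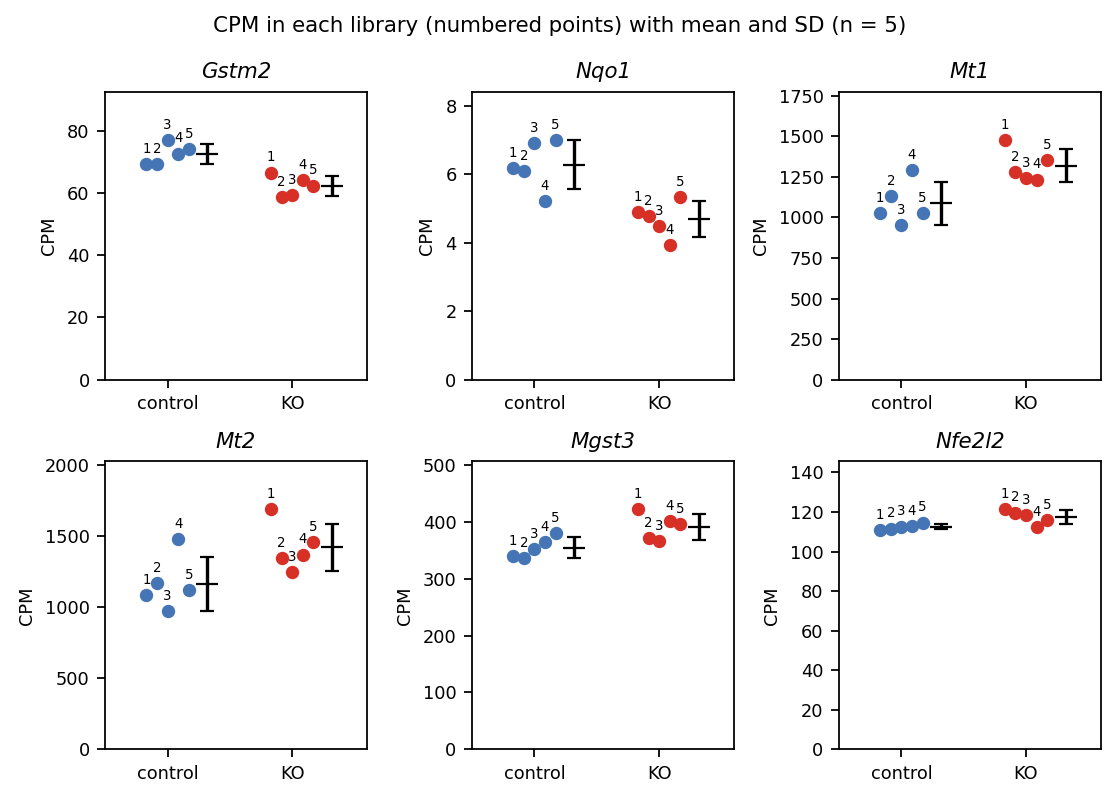
CPM of 6 of the genes in each numbered library, with the mean and SD of the 5 libraries of a group. The KO libraries of Gstm2 all lie below the control libraries, control library 4 (1289 and 1475 CPM) lies among the KO libraries for Mt1 and Mt2, and KO library 5 of Nqo1 (5.34 CPM) lies just above control library 4 (5.22 CPM).

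**Figure D3:**
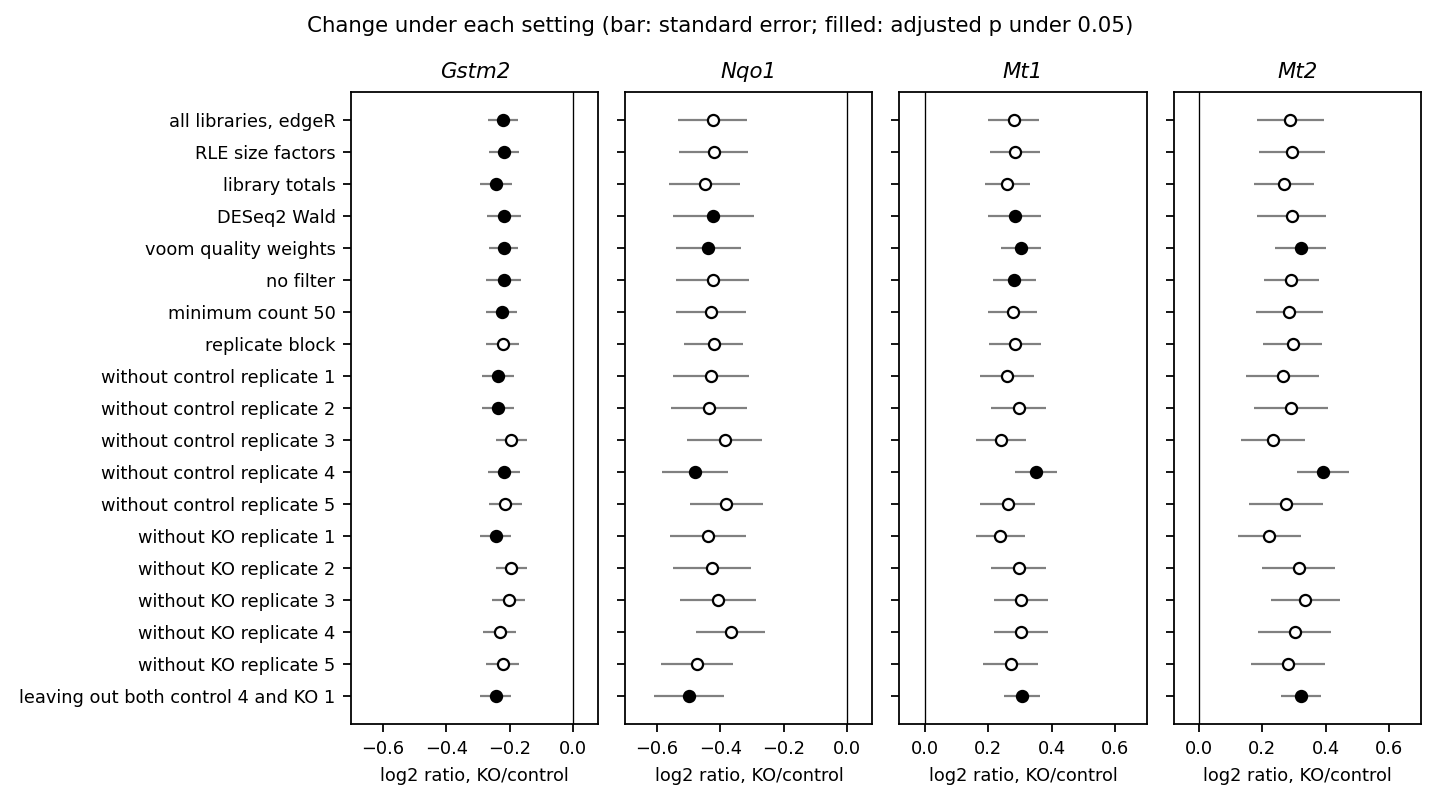
Log2 ratio of Gstm2, Nqo1, Mt1 and Mt2 in the fit to all libraries and under 18 other settings, with the standard error as a bar and a filled point where the adjusted p was under 0.05. The 4 genes kept their direction throughout, Gstm2 lost its call in 7 of the 18 settings, and Mt1, Nqo1 and Mt2 gained one in 5, 4 and 3, among them the setting without control library 4.

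Levels can be compared between genes per length. On the scale of CPM per kb of merged exons, control means ran from 3.57 (Gstt1) to 1977 (Mt2). Behind Mt2 came Ftl1 with 982, Mt1 with 871, Fth1 with 697 and Cat with 522 CPM per kb, so that metal-binding proteins took the leading places. Selenop (468), Gpx3 (396), Gpx4 (367), Mgst1 (344) and Mgst3 (324 CPM per kb) followed. At the other end, below Gclc at 11.5, stood Gsta3 (6.41), Gsta4 (4.99), Nqo1 (4.05) and Gstt1 (3.57 CPM per kb). Neighbours in this order often did not differ beyond their spread, as with Keap1 (15.0), Txnrd1 (14.2), Prdx4 (14.1) and Gclm (13.5), and the order rests on the annotated exons of GENCODE M21, not on the transcripts used in these cells.

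**Figure D4:**
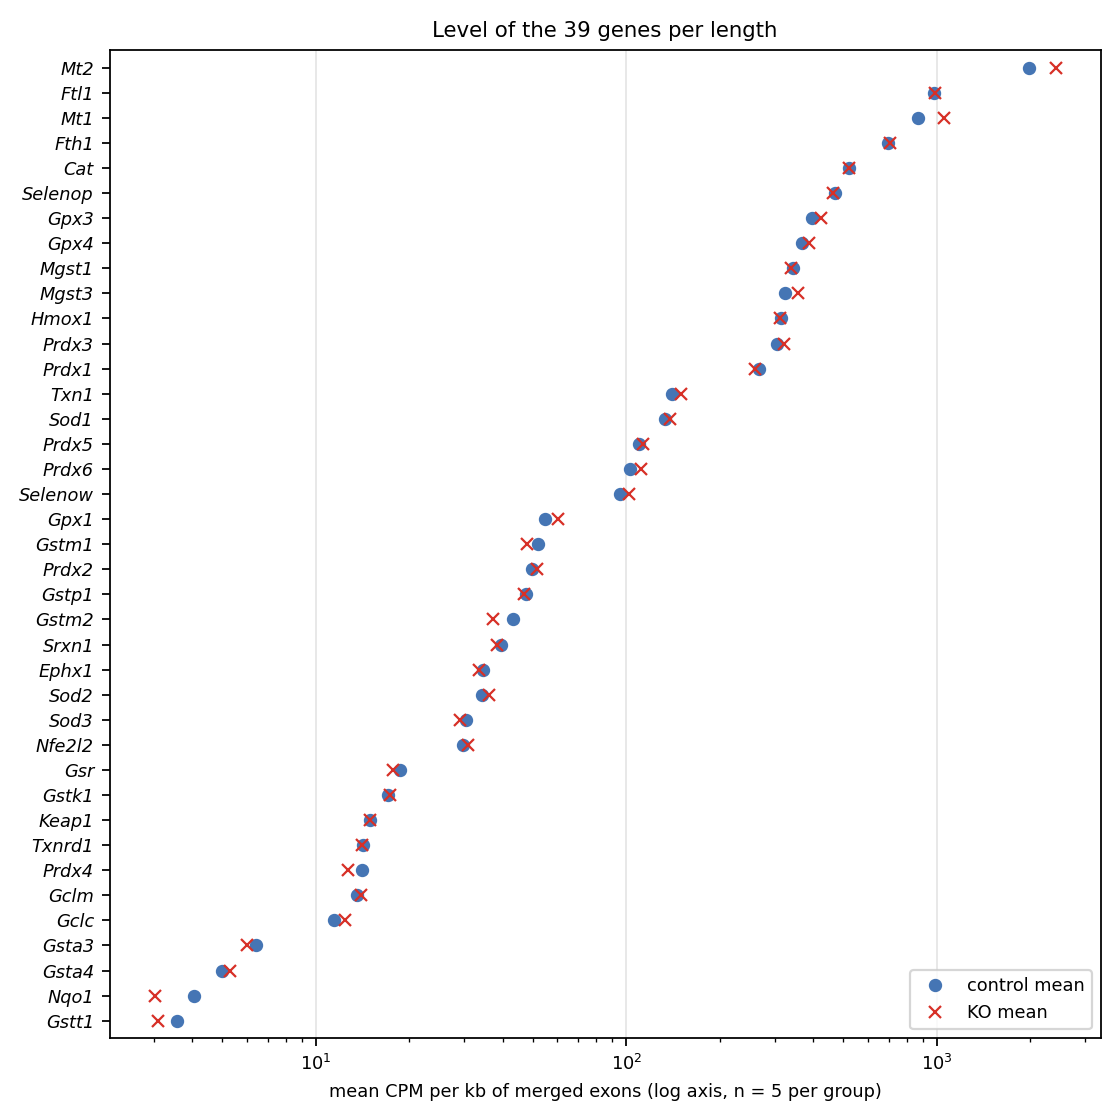
Mean level of the 39 genes in control (circles) and KO adipocytes (crosses) in CPM per kb of merged exons on a log axis, without error bars (n = 5 per group). Mt2 stands at the top with 1977 in control and 2415 in KO cells, Gstt1 at the bottom with 3.57 and 3.11, and the 2 symbols nearly coincide for most genes.

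**Figure D5:**
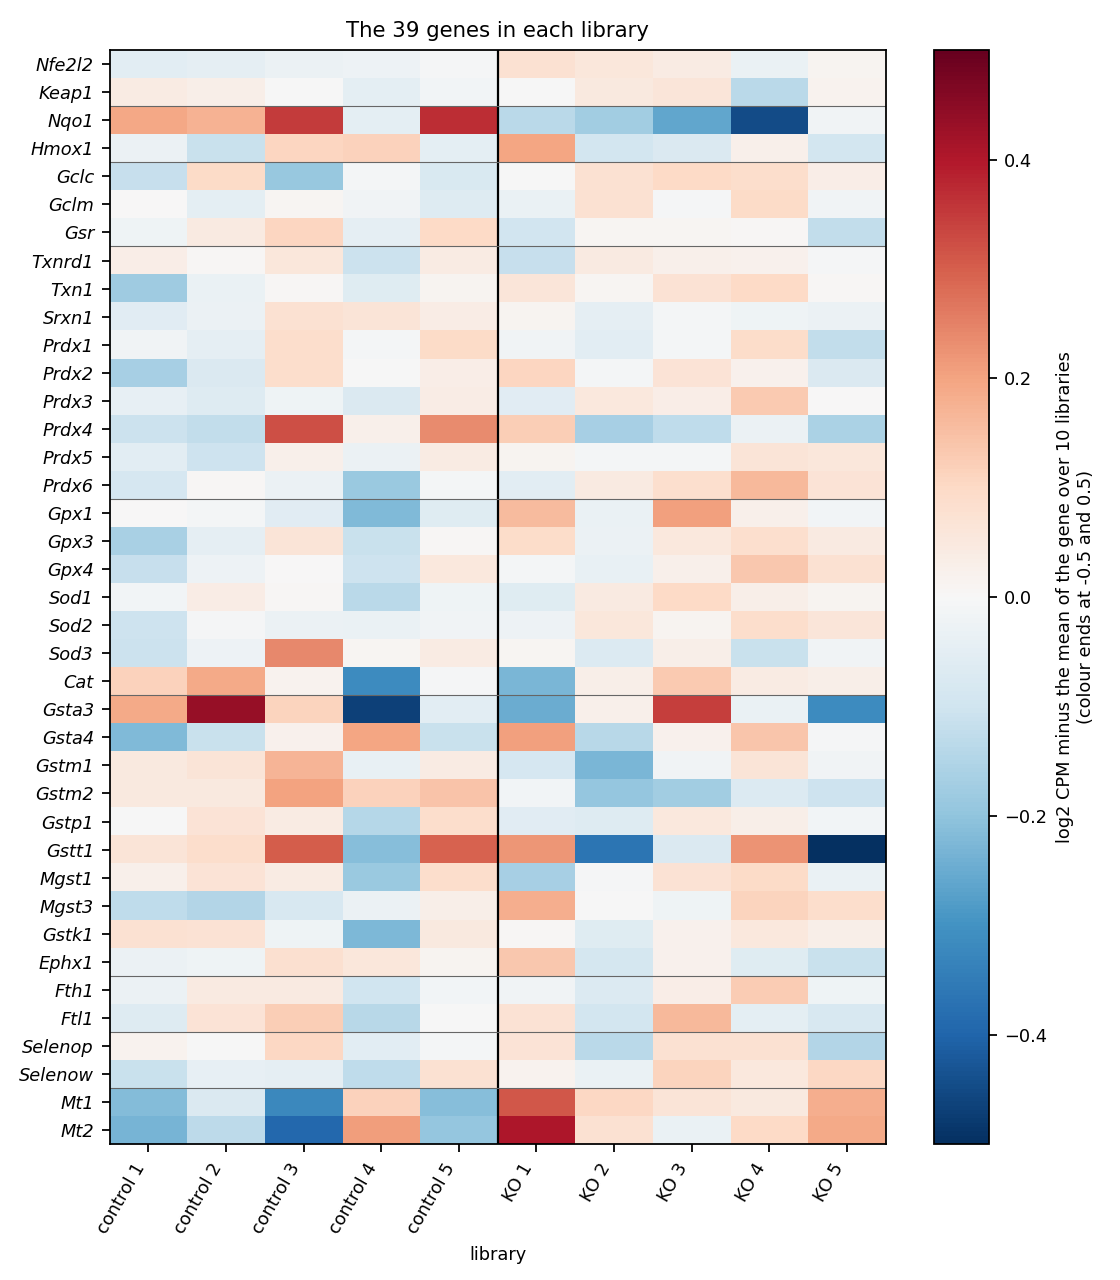
Log2 CPM of each of the 39 genes in each library minus the mean of that gene over the 10 libraries, with colours ending at -0.5 and 0.5. Control library 4 is pale blue to dark blue for Cat and Gsta3 and red for Mt1 and Mt2, KO library 1 shows the same colours for these genes, and only the Gstm2 row separates the genotypes in full.

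Of 97 other genes on a list of the same systems (partners of NRF2, the glutathione cycle, other transferases and peroxidases, thioredoxin, NADPH supply, heme and iron, selenium, zinc and copper), 88 could be tested, and 3 passed the limit, beside 2.17% of all genes tested. Ggt5, a gamma-glutamyl transferase relative that cleaves leukotriene C4 and glutathione, had 50.9, 50.7, 57.6, 43.9 and 51.1 CPM in the control and 38.9, 37.2, 41.7, 41.9 and 41.4 CPM in the KO libraries. The groups did not overlap, with control library 4 nearest to the KO libraries. Its mean of 50.8 ± 4.87 CPM fell to 40.2 ± 2.09 CPM in KO cells (SD, n = 5), and the log2 ratio was -0.34 (SE 0.0657, adjusted p = 0.0162 by edgeR's quasi-likelihood test).

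The other 2 supply NADPH and moved in opposite directions. Idh2, the mitochondrial isocitrate dehydrogenase that makes NADPH, had 127, 153, 142, 134 and 139 CPM in the control and 157, 159, 171, 171 and 170.1 CPM in the KO libraries, with no overlap. Its mean of 139 ± 9.57 CPM rose to 166 ± 6.93 CPM in KO cells (SD, n = 5), and the log2 ratio was 0.25 (SE 0.0509, adjusted p = 0.0201 by edgeR's quasi-likelihood test). Me1, the cytosolic malic enzyme, had 574, 554, 593, 678 and 624 CPM in the control and 540.2, 494, 455, 532 and 487 CPM in the KO libraries, with no overlap. Its mean of 605 ± 48.2 CPM fell to 502 ± 34.7 CPM in KO cells (SD, n = 5), and the log2 ratio was -0.27 (SE 0.0619, adjusted p = 0.0420 by edgeR's quasi-likelihood test). Fragments of Me1 may have been counted on the processed pseudogene Gm7049 (chr13:62813076-62814787, plus strand), which is 98.5% identical over the matched bases and had 51 to 72 counts in control and 268 to 347 counts in KO libraries, beside 10950 to 14779 and 9564 to 11620 counts of Me1.

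The remaining NADPH sources stayed near 0, with log2 ratios of 0.07 for G6pdx, -0.06 for Pgd and 0.03 for Idh1. At an unadjusted p below 0.05, 14 of the 88 genes passed, 9 lower and 5 higher, beside 11.9% of all genes tested. Among them were Selenon (-0.21, adjusted p = 0.0868 by edgeR's quasi-likelihood test), Gpx7 (-0.27) and Txnip, the thioredoxin inhibitor (0.24, adjusted p = 0.163 by the same test). Selenon, Txnip and Blvra (-0.17) passed the adjusted limit of this test without control library 4, and without both that library and KO library 1. With all libraries, DESeq2's Wald test called Selenon, and limma voom with quality weights called Selenon and Txnip. With all libraries, the NRF2 partners gave 0 calls of 11 and the zinc and copper genes 0 of 8. Without both control library 4 and KO library 1, edgeR's test called the NRF2 partner Maff and, of the glutathione cycle, Chac1. Maff had 28.1, 29.0, 28.6, 49.8 and 28.9 CPM in the control and 55.6, 37.7, 33.0, 33.2 and 35.4 CPM in the KO libraries. Its log2 ratio with all libraries was 0.25. Of genes named by role, Bach1, a repressor at NRF2 sites, had a log2 ratio of 0.06. Mtf1, the metal-responsive transcription factor, had -0.05, and Slc30a1, a zinc exporter that MTF1 induces, had 0.03. Slc7a11, the cystine carrier that NRF2 induces, had -0.02. In these roles, edgeR's unadjusted p was below 0.05 for Sesn2 (NRF2 partners), Ccs (zinc and copper), and Chac1 and Ggt5 (glutathione cycle). Sesn2 had a log2 ratio of 0.09, with every KO library above the control libraries. Chac1 had 0.16 and Ccs -0.18. Of these, only Ggt5 passed the adjusted limit with all libraries. The calls on this list moved with single libraries. By edgeR's quasi-likelihood test, Ggt5 missed the limit without KO library 2 (adjusted p = 0.0591) and passed in the other fits that left out a library. Idh2 missed it without control library 1 (adjusted p = 0.0544 by the same edgeR test) or 5 (0.0579) and without KO library 3 (0.0558), 4 (0.0584) or 5 (0.0668). Me1 passed only without control library 2 (adjusted p = 0.0356 by the same edgeR test) or KO library 1 (0.0295), and reached up to 0.1225 without each of the others, the highest being without KO library 2.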

How the data were processed

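RNA-seq libraries of primary differentiated adipocytes (5 control, 5 KO) were grouped by GEO's labels. A figure legend of the study names fewer samples per group than the 5 in the table, and all were used. Per the study's methods, cDNA libraries were normalized and then pooled for sequencing. The authors aligned paired-end reads with STAR (GRCm38.p6) and assigned fragments to genes with featureCounts. The deposited table holds counts per gene and library, genes at 0 included. The strand setting and the treatment of multi-mapping reads were not given in the sources used here. Genes with few counts were dropped by filterByExpr (minimum count 10), libraries were scaled by TMM, and the genotypes were compared by the quasi-likelihood test of edgeR 4.0.16 (R 4.3.3), with p-values adjusted by Benjamini-Hochberg over 14270 genes (limit 0.05). Standard errors are the log2 ratio over the root of F. The relations of gene pairs permuted deviations within groups. DESeq2 1.42.0, limma 3.58.1, other scalings and filters, a replicate block and left-out libraries were alternatives. The scripts were tested on simulated counts. Copies were sought by BLAST 2.17.0 against GENCODE M21, which also gave positions and exon lengths; promoters are those of RefSeq.

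The genes and lists were chosen with earlier results of these data known. Values were given per library for Gstm2, the regulators, the metallothioneins, the 8 genes of smallest p, the 5 of highest CPM per kb and the 3 of largest spread. Libraries of a group differed by more than sampling noise (the lowest chi-square per degree of freedom was 3.52), and the biological coefficient of variation was 9.35%.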

Additional observations from a re-analysis of the deposited data

Results flagged for a closer look

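In groups of 5 libraries, the gap of the highest or lowest library to its nearest neighbour was divided by the range of the group and set against Dixon's critical value of 0.71, which chance passes in 5% of groups. Of the 78 groups (39 genes in 2 genotypes), 2 passed, where chance gives 3.9. Sod2 in control library 1 was 327.4 CPM, with the other control libraries at 344 to 349.6 CPM (ratio 0.735). Mgst1 in control library 4 was 604.1 CPM, with the others at 699.5 to 730.0 CPM (ratio 0.758). Neither gene passed the limit between genotypes.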

How the results depend on the processing

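Of the 39 genes, 1 was lower in KO with all libraries and edgeR, 2 with DESeq2, 2 with limma voom and quality weights, 2 without both control library 4 and KO library 1, 0 with the replicate block, and 0 to 2 with each library left out in turn. None was higher with edgeR, with 6 at an unadjusted p below 0.05, while DESeq2 called 1, limma voom 2, the table without a filter on low counts 1, the fit without both libraries 2, and fits with a library left out 0 to 2. On the list of 97 related genes, 2 were lower (replicate block 1, without both libraries 4, a library left out 0 to 3) and 1 was higher (library totals 0, limma voom 2, without both libraries 4, a library left out 0 to 2). Both groups carry replicate numbers 1 to 5. The deviations of same-numbered libraries correlated at -0.17, 0.089, 0.26, -0.25 and 0.034, and 1 of the 5 control libraries, library 3, correlated best with its own number. The labels name no pairing, and 5 such correlations are too few to tell whether one exists. The replicate block ended the calls of Gstm2 (adjusted p = 0.0922 by edgeR) and Me1 (0.0599), and scaling by library totals that of Idh2 (0.0665). Gstm2 kept its log2 ratio between -0.24 and -0.19 and lost the call in 7 of 18 settings, with adjusted p-values of edgeR's quasi-likelihood test up to 0.100. Over 15 of the 39 genes, those given per library, and 18 settings (Ggt5, Idh2 and Me1 not counted), 229 of 270 values kept direction and side of the limit, 12 passed it and 7 no longer did. The sign turned in 22, of Keap1, Cat, Fth1, Ftl1 and Gsta3, whose values with all libraries ran from -0.099 to 0.021. Keap1 gave 0.0025 with RLE size factors, 0.0025 with DESeq2, 0.00058 with no filter and -0.015 to 0.031 with a library left out. Cat gave 0.00028 with the replicate block and -0.072 to 0.051 with a library left out, and Gsta3 -0.21 to 0.012. Fth1 gave -0.00045 with library totals and -0.0089 to 0.047 with a library left out. Ftl1 gave -0.016 with library totals, -0.025 with limma voom, -0.041 without both libraries and -0.034 to 0.042 with a library left out. The cause of these turns was not tested. Library totals moved the median of all genes to -0.023. Low genes such as Nqo1 and Gstt1 rest on few counts, which limits their precision.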

Other observations

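Several genes of these families were at or near 0 in both genotypes. Nnt, the proton-driven transhydrogenase that makes NADPH in mitochondria, had 1 count in control library 1 and 1 count in KO library 4, and 0 counts in every other library. The C57BL/6J strain, to which these mice were crossed, is known to carry a deletion within Nnt. Mt3, the metallothionein known from brain, had 1 to 3 counts in the control and 1 to 11 counts in the KO libraries, and Mt4, known from squamous epithelium, had 0 counts in all of them, so that Mt1 and Mt2 held nearly all metallothionein counts. Gsta1, Gsta2, Gstm3 and the mitochondrial ferritin Ftmt had 0 counts in every library, and Gstm6 and Gstp3 had 0 to 4 and 3 to 12 counts. A count of 0 allows up to 3 counts in a library, for counting error only.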
